A study of Mus musculus with 8 samples.

Results

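The Runx family comprised 4 genes here: Runx1, Runx2 and Runx3, which encode DNA-binding RUNX factors, and Cbfb, which encodes their shared partner CBFβ. Their open chromatin was taken as every ATAC-seq peak that overlapped a gene body or the 20 kb on either side of it. Peaks of the 8 libraries were merged where they shared a base, which gave 99 merged regions at the family out of 82424 in the genome. Of the 72711 regions that were found in 2 or more libraries (consensus regions), 90 lay at the family. Runx1 held 37 of them, Runx2 36, Runx3 9 and Cbfb 8.

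ATAC-seq marks open chromatin by the cuts of a transposase, and was done on alveolar macrophages (AMs), the resident macrophages of the airspaces, from adult mice on the C57BL/6J background. The KO group (4 libraries, replicates 1_2, 1_3, 2 and 3) carried CD11cCre+ and Rxrabfl/fl alleles, so that Cre removed the retinoid X receptors α and β in cells with an active CD11c promoter. The WT group (4 libraries, replicates 1_2, 1_3, 3 and 4) was CD11cCre- and carried the same floxed alleles. The labels name no treatment for either group. CD11c is also made by dendritic cells, and its own gene, Itgax, is a RUNX target described below. The study describes its ATAC-seq groups as mice, with the group size given above. Whether 1_2 and 1_3 are separate animals is not stated for the libraries themselves, so p-values measure only the spread between these libraries.

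RUNX factors bind DNA weakly alone and tightly as a pair with CBFβ, which itself does not touch DNA. Runx1 is required for definitive blood stem cells and works with PU.1 and C/EBP factors at myeloid genes, Runx2 is the master regulator of bone formation, and Runx3 acts in T cells, dendritic cells and sensory neurons. Each Runx gene is transcribed from a distal promoter, which comes first along the gene, and a proximal promoter inside it, and the resulting proteins differ at their N termini.

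The lists held 60363 to 65009 peaks in KO and 61240 to 72484 in WT libraries, and background depth ran from 1.12 to 1.86 tags per 200 bp in KO and from 1.42 to 2.26 in WT. A tag is a transposase cut extended to 200 bp, and the number of tags over each peak's summit was worked back from the fold and p-value in the lists. The weakest peak of a list held 6 to 9 tags. As a check of the labels, 1 region in the deleted gene Rxra (chr2:27744546-27744950) had a peak in all 4 WT libraries, with 38, 46, 38 and 42 tags, and in 0 of 4 KO libraries. The other Rxra regions, of 16 in all, had peaks in both genotypes, and of 12 tested 0 fell (0 at an unadjusted limma p under 0.05) and 1 rose. Both regions in Rxrb had peaks in both genotypes, and the 1 tested did not pass, so the lists check the deletion at 1 region of Rxra and not at Rxrb. Of 11 AM markers, 10 had a promoter peak in all 8 libraries and Chil3 had none. Of 22 markers of T and B cells, epithelium, neutrophils and eosinophils, 16 had no promoter peak in any library, among them Cd3e, Sftpc, Ly6g and Epx. Zbtb7b, Epcam, Cdh1 (which the study also lists among AM-core genes), Scgb1a1 and S100a8 had one in all 8, and Pax5 had one in 1 WT library. Their part in the results at the Runx family was not tested.

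Regions were numbered along each gene in the direction of transcription, so that Runx1_r3 is the third region of the Runx1 window. The promoters of the family differed widely in accessibility. Cbfb and both Runx1 promoters were among the more open regions of AM chromatin, and both Runx2 promoters were open at intermediate levels. The Runx3 promoters were the least open, with the distal one near the limit of detection. The 250 bases before the start sites of Runx1 and of the distal Runx3 promoter are shown because they span this range (GRCm38, 5′ to 3′ on the strand of the gene). Capitals mark matches on either strand to the motifs of RUNX (TGTGGT), PU.1 (GAGGAA), AP-1 (TGANTCA) and the nuclear receptor half-site (AGGTCA).
Runx1 distal promoter, chr16:92826150-92826399, minus strand: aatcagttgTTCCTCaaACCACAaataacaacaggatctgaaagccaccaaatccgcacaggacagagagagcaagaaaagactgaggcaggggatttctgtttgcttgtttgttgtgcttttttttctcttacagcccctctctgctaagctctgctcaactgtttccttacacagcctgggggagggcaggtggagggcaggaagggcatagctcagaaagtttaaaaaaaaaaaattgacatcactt
Runx1 proximal promoter, chr16:92697329-92697578, minus strand: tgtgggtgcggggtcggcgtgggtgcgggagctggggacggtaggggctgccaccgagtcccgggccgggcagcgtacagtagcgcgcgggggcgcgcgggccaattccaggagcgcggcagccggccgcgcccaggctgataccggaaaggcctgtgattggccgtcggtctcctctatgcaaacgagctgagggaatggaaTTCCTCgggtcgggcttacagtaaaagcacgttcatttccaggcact
Runx3 distal promoter, chr4:135120402-135120651, plus strand: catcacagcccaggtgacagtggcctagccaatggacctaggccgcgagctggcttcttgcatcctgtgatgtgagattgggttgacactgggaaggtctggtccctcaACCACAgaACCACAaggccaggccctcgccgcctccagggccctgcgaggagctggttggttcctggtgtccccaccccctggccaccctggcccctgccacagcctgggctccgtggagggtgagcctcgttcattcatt
The distal Runx1 stretch holds a RUNX match and a PU.1 match beside each other, has 44.8% G and C, and holds 1 CpG. It also holds a DR1, the element of 2 half-sites 1 base apart that RXR binds with partner receptors, at up to 2 mismatches. The proximal Runx1 stretch holds 1 PU.1 match and no RUNX match, with 67.2% G and C and 27 CpGs. The distal Runx3 stretch, which was barely open, holds 2 RUNX matches. The printed stretches end at the start sites. Within 100 bp of the summit of the distal Runx1 promoter, which lies past its start site, there were 3 further RUNX matches. Among 41136 such 250-base stretches before protein-coding start sites, 12.3% held the RUNX letters, 22.9% the PU.1 letters and 2.72% a DR1, and the median number of CpGs was 10.

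At the distal promoter of Runx1 (Runx1_r3, chr16:92825808-92826323, start site at 92826149), the summit held 190, 196, 158 and 148 tags in KO, in the order of replicates given above. It held 145, 196, 147 and 137 in WT. The raw tags of the groups overlapped, with WT replicate 1_3, the library of highest background depth, at the KO maximum. After each library was centred on the median of its log2 tags over all regions open in every library, the KO values ran from 1.37 to 1.54 and the WT values from 0.99 to 1.18, with no overlap. All KO values lay above all WT values at 6 of the 55 family regions open in every library (10.9%, genome 8.25%), and below them at 4 (7.27%, genome 7.91%). The distal promoter was 1.29-fold higher in KO (log2 difference 0.36 ± 0.09 SE, 95% interval 0.18 to 0.55, limma adjusted p = 0.0045). With libraries scaled to background depth in place of their medians, the difference was 0.31 and did not pass (limma adjusted p = 0.35). A smaller region within the same kilobase, Runx1_r4, had a peak in 2 KO and 1 WT libraries with 44 to 58 tags, and Runx1_r2 had 1 in a single WT library with 35 tags.

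The proximal promoter of Runx1 (Runx1_r18, chr16:92697134-92697640, start site at 92697328) was the more open of the pair. Its summit held 201, 200, 230 and 196 tags in the KO libraries and 171, 236, 209 and 187 in the WT libraries, which overlapped. The log2 difference of 0.26 ± 0.09 SE (95% interval 0.08 to 0.45) missed the threshold (limma adjusted p = 0.052). It passed in 5 of 15 alternative fits, among them those without KO replicate 1_2 (adjusted p = 0.038 by limma), KO replicate 1_3 (0.039) or WT replicate 4 (0.013). The other fits did not pass, among them those without KO replicate 2 (limma adjusted p = 0.24) and with scaling to background depth (0.66). Runx1_r19, 510 bp into the first exon of that promoter, had 90, 114, 100 and 88 tags in KO and 90, 114, 89 and 75 in WT. Its centred values did not overlap, but the difference of 0.31 ± 0.11 SE also missed the threshold (limma adjusted p = 0.060). That difference passed in 1 of 15 alternative fits, without KO replicate 1_2 (limma adjusted p = 0.031). With scaling to background depth the limma adjusted p was 0.58.

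The distal promoter of Runx2 (Runx2_r2, chr17:44814422-44815047, start site at 44814797) was much less open than those of Runx1. It held 34, 44, 42 and 28 tags in KO and 36, 40, 29 and 34 in WT. These values overlapped, and the log2 difference was 0.29 ± 0.18 SE (95% interval -0.07 to 0.65, limma adjusted p = 0.31). At the proximal promoter (Runx2_r11, chr17:44735567-44736709, start site at 44736648), the tags were 75, 70, 65 and 70 in KO and 63, 83, 62 and 56 in WT. The centred values of the 2 groups did not overlap there, while the difference of 0.31 ± 0.13 SE (95% interval 0.05 to 0.57) did not pass (limma adjusted p = 0.11). The antisense gene Runx2os1 overlaps this summit, and ATAC-seq has no strand, so the openness cannot be assigned to either. Runx2_r12, near the last start site of the proximal cluster, had 50 to 67 tags in KO and 61 to 95 in WT, with a difference of -0.03 ± 0.13 SE.

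Runx3 promoters were the least open of the family. By summit tags, the proximal one stood at percentile 22.0 of all consensus regions and the distal one at 0.489. The distal one (Runx3_r1, chr4:135120367-135120651, summit 185 bp before the start site) had a peak in KO replicates 1_3 and 3 and in WT replicate 1_2, with 10, 11 and 11 tags. The summit lies 20 bp from the start site of the noncoding gene Gm16225. At the proximal one (Runx3_r6, chr4:135152811-135153111), 3 KO libraries had 14, 17 and 13 tags and the 4 WT libraries had 20, 27, 17 and 18, while KO replicate 3 had no peak. The highest KO value equalled the lowest WT value, and KO replicate 3 is also the library of lowest background depth. Neither region was testable across all 8 libraries.

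Cbfb has 1 promoter (Cbfb_r4, chr8:105170308-105171053, first start site at 105170674), and it was the most open promoter of the family. The KO libraries held 259, 235, 216 and 163 tags and the WT libraries 205, 272, 248 and 187, which overlapped throughout. The log2 difference was 0.15 ± 0.09 SE (95% interval -0.03 to 0.32, limma adjusted p = 0.30). Of the 5 promoters that could be tested, the distal one of Runx1 was the one that passed.

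**Figure D1:**
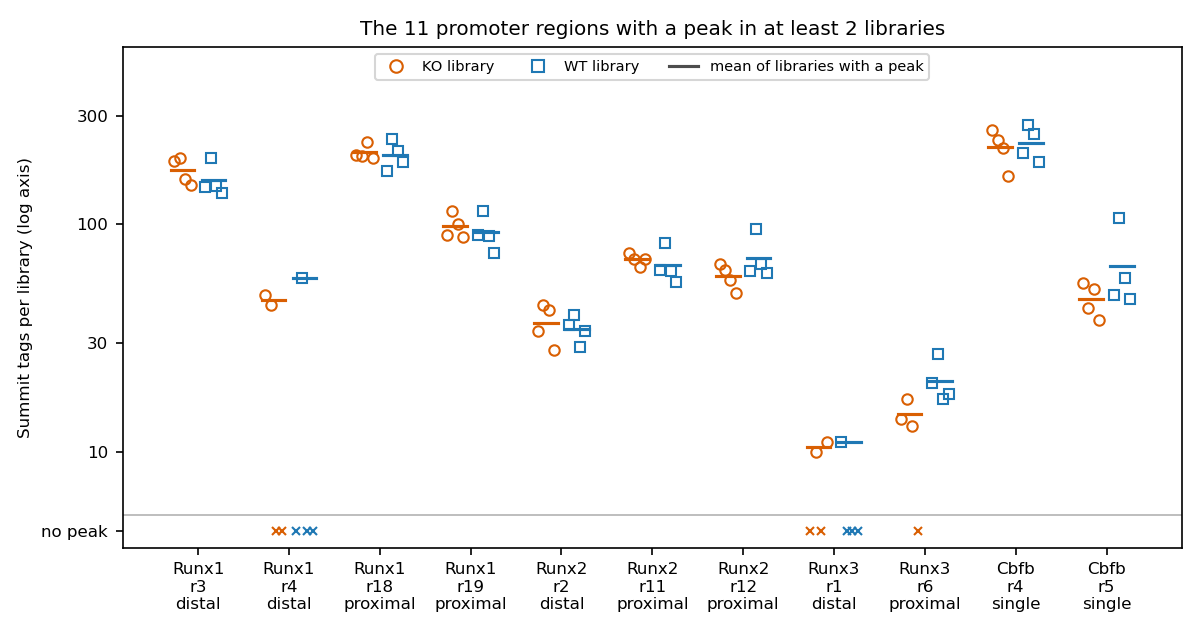
Summit tags per library (log axis) at the 11 promoter regions of the family found in 2 or more libraries; circles are KO, squares WT, bars the mean of libraries with a peak, and crosses libraries with no peak. Cbfb_r4 and Runx1_r18 lie near 200 tags in both genotypes, and the Runx3 promoters at 27 tags or fewer.

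Most consensus regions of Runx1 and Runx2 lay in introns (30 of 37 and 32 of 36), and Runx1 had the densest window. The Runx1 window of 264.7 kb held 14.0 consensus regions per 100 kb and the Runx2 window of 358.8 kb held 10.03, against 9.25 for Runx3 and 9.16 for Cbfb. Runx1 and Runx2 each had 24 regions with a peak in all 8 libraries, Runx3 had 4 and Cbfb 3. These 55 make 61.1% of the family's consensus regions, and 65.3% of all consensus regions were open in every library. By summit tags, the median region stood at percentile 60.4 of all consensus regions in Runx1, 56.2 in Runx2, 36.7 in Cbfb and 22.0 in Runx3.

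The most open regions of Runx1 and Runx2 lay in introns, not at promoters. In Runx1, Runx1_r11 (chr16:92783459-92784092, 42.4 kb after the distal start site) held 279, 238, 224 and 220 tags in KO and 288, 323, 335 and 244 in WT. In Runx2, Runx2_r30 (chr17:44663795-44664451, 150.7 kb after the distal start site) held 337, 332, 325 and 292 tags in KO and 328, 437, 393 and 352 in WT. Neither differed past the threshold once centred, with log2 differences of -0.09 ± 0.08 SE (limma adjusted p = 0.53) and -0.01 ± 0.08 SE (limma adjusted p = 0.95). The next in openness were Runx1_r34 (mean 247.9 tags, difference -0.14 ± 0.09 SE), which lies 155 bp from the start of the antisense gene Gm26626, and Runx2_r32 (mean 166.9 tags, difference -0.11 ± 0.09 SE). The first intron of Runx1 is known for an enhancer active in blood stem cells, and Runx1_r7 and Runx1_r8, at 24.4 and 25.1 kb after the distal start site, were open in all 8 libraries with 84 to 129 and 37 to 58 tags.

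At Runx3 and Cbfb, the most open regions outside promoters lay past the genes. Runx3_r10 (chr4:135192731-135193346, 15.1 kb after the gene) held 79 to 126 tags in KO and 94 to 138 in WT, with a difference of 0.13 ± 0.11 SE. Cbfb_r8 (chr8:105224761-105225703) held 51 to 78 tags in KO and 46 to 94 in WT, with a difference of 0.21 ± 0.15 SE, and sits at the start site of the next gene, D230025D16Rik. Runx2_r7 (119 to 146 tags in KO, 110 to 176 in WT) likewise sits 487 bp from the start site of Supt3, a transcription coactivator gene that overlaps the first part of Runx2 on the other strand.

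**Figure D2:**
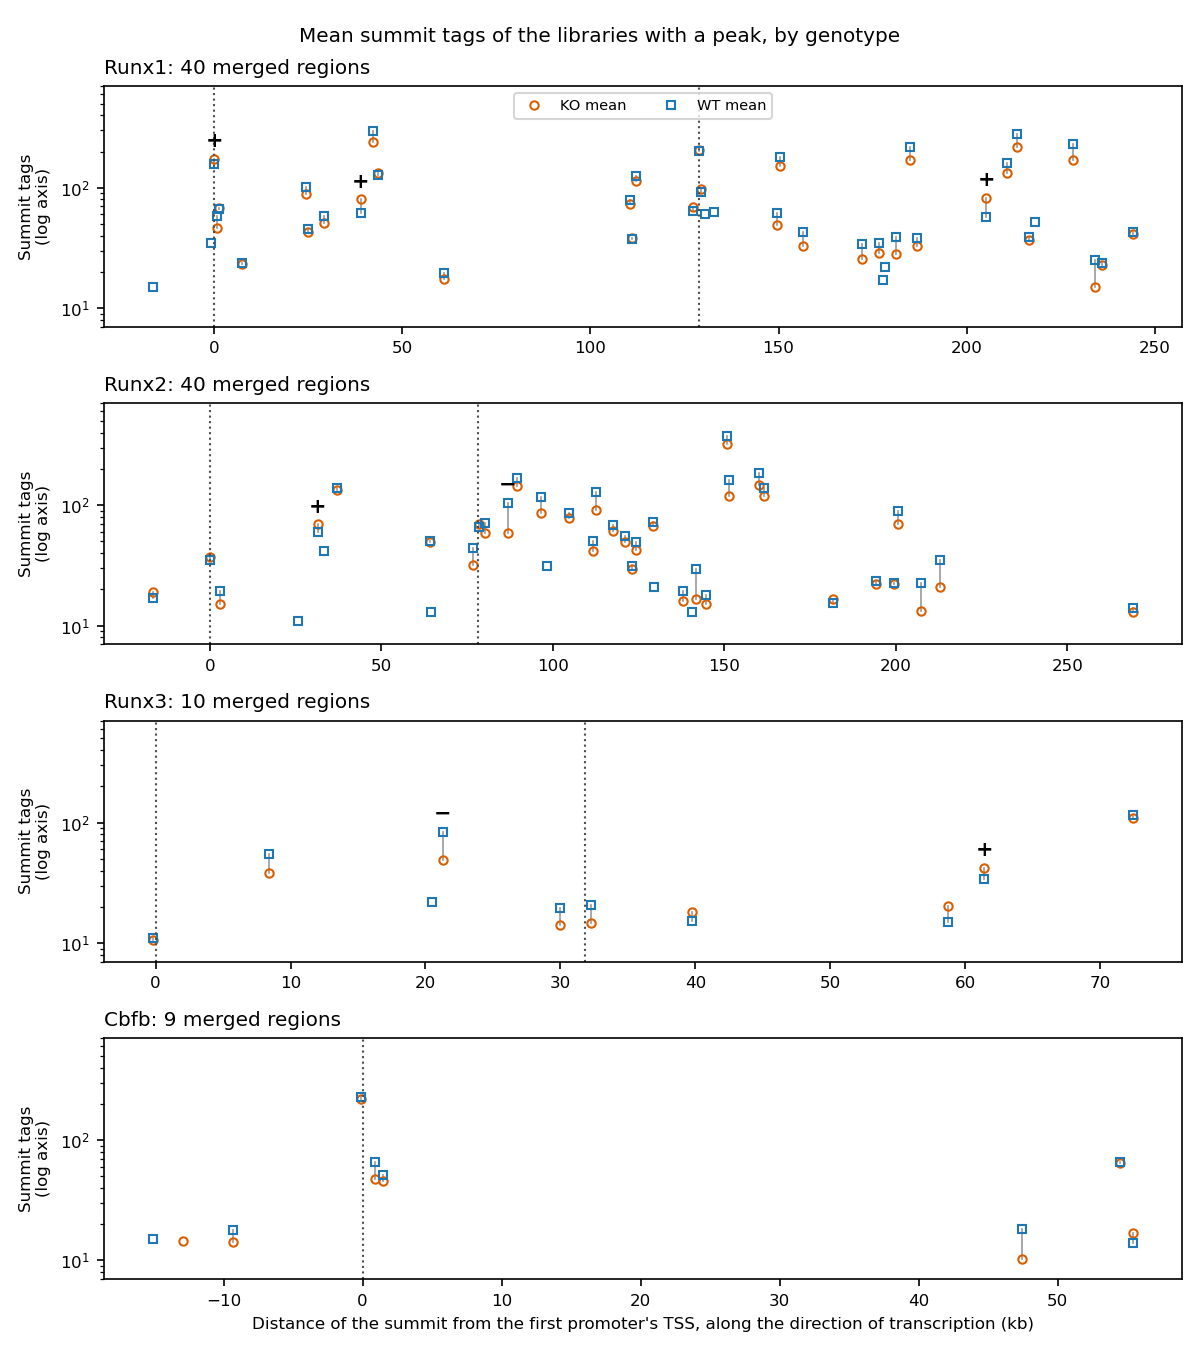
Mean summit tags of the libraries with a peak (vertical log axis; circles KO, squares WT) at each merged region, by distance in kb from the first promoter's start site along the direction of transcription; dotted lines mark promoters, and plus or minus marks regions that were higher or lower in KO in the limma fit. Runx1 and Runx2 have 40 regions each, Runx3 10 and Cbfb 9, and the most open regions of Runx1 and Runx2 lie between the marked promoters or beyond them.

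KO libraries had fewer peaks at the family as a whole. The KO libraries had 79, 78, 72 and 76 peaks in the 4 windows and the WT libraries 84, 89, 89 and 80, so that all KO libraries were below all WT libraries. The means were 76.25 ± 3.10 (SD, n = 4) and 85.5 ± 4.36 (SD, n = 4), a difference of -9.25 peaks (two-sided exact permutation p = 0.0286, the lowest that 4 against 4 can give). The WT lists were longer on average, with overlapping ranges. The peaks at the family made 0.118% to 0.131% of the KO lists and 0.123% to 0.134% of the WT lists, and these shares overlapped (exact permutation p = 0.11). Cut to equal length, the lists gave a difference of -4.25 peaks (exact permutation p = 0.086). With 1_2 and 1_3 counted as 1 sample, the difference was -9.67 peaks and 3 against 3 could not go below the exact p = 0.1 found.

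The deficit lay at Runx2 and Runx1. Runx2 had 31, 33, 29 and 33 peaks in KO and 35, 38, 38 and 36 in WT, with no overlap. How often other genes show such a gap was not counted, and the WT lists were longer on average. Runx1 had 34, 30, 31 and 29 in KO and 35, 35, 37 and 32 in WT, which overlapped. Runx3 had 6 to 9 in KO and 7 to 9 in WT, and Cbfb 6 or 7 in KO and 5 to 7 in WT. In covered length, the family totalled 30382, 30725, 29612 and 28629 bp in KO and 32188, 36803, 33876 and 29597 bp in WT, a difference of -3279 bp that did not pass (exact permutation p = 0.11).

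Counted region by region, 22 of the 90 consensus regions had a peak in more WT than KO libraries (24.4%), where the genome gave 17.9%. The reverse held for 7 (7.78%, genome 9.57%). At Runx2, 11 of 36 had more WT libraries and 0 had more KO libraries. At Runx1 the numbers were 7 and 4, at Runx3 2 and 2, and at Cbfb 2 and 1. The 11 Runx2 regions had mean tags of 15.8 to 41.7, and included Runx2_r3 (1 KO library with 15 tags, 4 WT libraries with 16 to 25) and Runx2_r36 (2 KO libraries with 24 and 20, 4 WT libraries with 18 to 27).

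**Figure D3:**
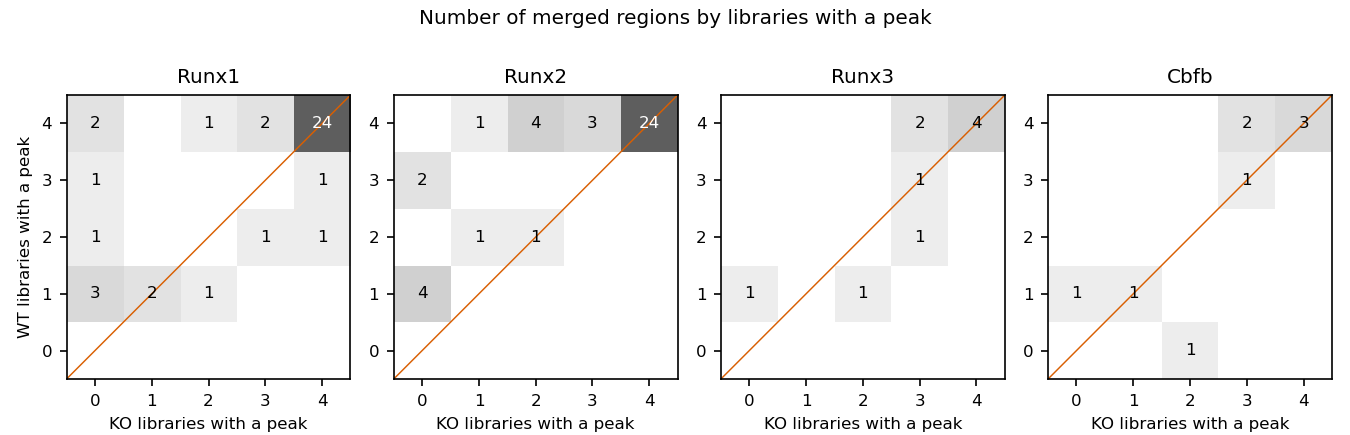
Number of merged regions at each gene by how many of the 4 KO libraries (horizontal) and the 4 WT libraries (vertical) had a peak; the diagonal line marks equal numbers. Runx2 has 15 regions above the line and 0 below, singletons included.

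Regions open in 1 genotype only were few. The WT-only regions, with a peak in 4 of 4 WT and 0 of 4 KO libraries, numbered 2 among the 90 consensus regions, and 0.82% of all consensus regions were of this kind. KO-only regions numbered 0 (genome 0.285%). The first, Runx1_r1 (chr16:92842138-92842505), lies 16.2 kb before the distal start site, and held 11, 26, 9 and 14 tags in the WT libraries, against background of 1.42 to 2.26. The second, Runx1_r28 (chr16:92647850-92648138), lies in an intron 178.2 kb after it and held 22, 23, 23 and 20 tags against a higher local background of 4.96 to 7.98. Both are weak, and a KO list without a peak there may still hold tags under the calling threshold. At a −log10 q of at least 5, neither kept a peak in all 4 WT libraries, because WT replicate 3 at Runx1_r1 had 3.11 and WT replicate 1_3 at Runx1_r28 had 3.45. The 201 bases around their summits are shown, on the strand of Runx1, since they are the family's regions seen in every library of 1 genotype only.
Runx1_r1, chr16:92842245-92842445, minus strand: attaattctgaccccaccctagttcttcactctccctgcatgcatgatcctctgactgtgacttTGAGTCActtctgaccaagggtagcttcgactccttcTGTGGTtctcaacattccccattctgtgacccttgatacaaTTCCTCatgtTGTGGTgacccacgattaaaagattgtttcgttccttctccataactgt
Runx1_r28, chr16:92647845-92648045, minus strand: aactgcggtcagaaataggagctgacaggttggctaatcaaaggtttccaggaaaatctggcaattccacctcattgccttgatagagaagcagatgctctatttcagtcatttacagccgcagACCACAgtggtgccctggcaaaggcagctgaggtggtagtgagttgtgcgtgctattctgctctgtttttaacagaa
Runx1_r1 holds 2 RUNX matches, a PU.1 match and an AP-1 match, and Runx1_r28 holds 1 RUNX match. Neither holds the half-site AGGTCA or a DR1.

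A further 3 regions had a peak in 3 WT and 0 KO libraries (3.33% of 90, genome 1.43%), and 0 had the reverse (genome 0.47%). Runx1_r21, 3.9 kb after the proximal start site, held 61, 63 and 64 tags, but over a local background of 13.1 to 17.6, so its folds were 3.44 to 4.39. Runx2_r6 held 33, 56 and 36 tags over a background of 10.8 to 15.6. Runx2_r16 held 47, 25 and 21 over 4.82 to 7.92. Runx1_r21 and Runx2_r6 lacked a peak in WT replicate 4 and Runx2_r16 in WT replicate 1_2, so without WT replicate 4 the count of WT-only regions was 4.

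Summit tags were then compared at the 55 family regions with a peak in all 8 libraries, within a limma fit of all 47499 such regions. In that fit 12.8% of regions passed an adjusted p of 0.05, and 7 of the 55 did (12.7%), a share near that of the genome. The family had 5 regions that rose in KO (genome 5.81%) and 2 that fell (genome 7.03%). Its median difference was 0.04 on the log2 scale, as was the median of all regions (0.04). With libraries 1_2 and 1_3 averaged, 5 rose and 4 fell, the added falls being Runx2_r28 and Runx2_r39 (limma adjusted p = 0.072 and 0.060 with all libraries). There were also 4 rises and 4 falls without KO replicate 1_3 or without WT replicate 1_2, and 3 rises and 2 falls without WT replicate 3. The scaling mattered for the balance. In the genome, 2759 regions rose and 3337 fell with median centring, while 575 rose and 1988 fell with scaling to background depth. At the family, 1 rise (Runx1_r32) and the 2 falls (Runx2_r13, Runx3_r4) passed under both.

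The largest rise was at Runx1_r32 (chr16:92620719-92621565), in an intron 205.2 kb after the distal start site and 8.1 kb from the start site of the antisense gene Gm26626. The KO libraries held 85, 94, 74 and 76 tags and the WT libraries 45, 77, 45 and 61. Raw values overlapped at WT replicate 1_3, and centred values did not. It was 1.7-fold higher in KO (log2 difference 0.77 ± 0.14 SE, 95% interval 0.48 to 1.06, limma adjusted p = 0.00012), and passed in 15 of 15 alternative fits. Its summit is shown as the clearest rise.
Runx1_r32, chr16:92620809-92621009, minus strand: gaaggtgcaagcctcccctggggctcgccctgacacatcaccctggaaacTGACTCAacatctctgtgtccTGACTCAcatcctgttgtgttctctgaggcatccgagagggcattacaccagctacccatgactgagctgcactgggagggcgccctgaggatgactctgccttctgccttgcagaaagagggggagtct
It holds 2 AP-1 matches and none to RUNX, PU.1 or the half-site.

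Runx1_r10 (chr16:92786959-92787369), 39.0 kb into the gene, was the other intronic rise of Runx1. It held 69, 78, 83 and 90 tags in KO and 55, 57, 71 and 62 in WT, which overlapped at a single WT library. The difference was 0.60 ± 0.15 SE (1.51-fold, limma adjusted p = 0.0038), with depth scaling it was 0.54 (limma adjusted p = 0.060), and with a constant prior variance its limma adjusted p was 0.058. Of the 24 Runx1 regions tested, 3 rose, 0 fell and 21 did not pass.

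In Runx2, 1 region rose and 1 fell among 24. Runx2_r13 (chr17:44727704-44728115), in an intron 8.8 kb after the proximal start site, held 81, 67, 44 and 45 tags in KO and 110, 144, 89 and 76 in WT. Apart from KO replicate 1_2 against WT replicate 4, every KO value was below every WT value, and none overlapped after centring. The region fell by 0.61 ± 0.14 SE on the log2 scale (1.53-fold, limma adjusted p = 0.0016), and passed in 15 of 15 alternative fits. Its summit is shown because, of the 7 changed regions, it is the one with half-site matches.
Runx2_r13, chr17:44727787-44727987, minus strand: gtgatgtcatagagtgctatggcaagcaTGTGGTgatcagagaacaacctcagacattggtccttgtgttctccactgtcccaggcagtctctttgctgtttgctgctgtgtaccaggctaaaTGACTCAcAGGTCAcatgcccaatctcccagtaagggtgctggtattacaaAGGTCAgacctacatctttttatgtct
It holds 2 copies of AGGTCA, 1 of them a base away from an AP-1 match, and 1 RUNX match. Runx2_r5 (chr17:44783067-44783545), in the part shared with Supt3, held 68, 78, 61 and 70 tags in KO and 50, 87, 50 and 52 in WT. It rose by 0.46 ± 0.14 SE (1.38-fold, limma adjusted p = 0.021). Its call was lost by limma without KO replicate 1_3 (adjusted p = 0.062), KO replicate 3 (0.085), WT replicate 1_2 (0.071) or WT replicate 3 (0.098), and with depth scaling (0.27).

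Runx3 also had 1 rise and 1 fall, among 4. Runx3_r4 (chr4:135141725-135142144), in the intron between the promoters, held 57, 46, 41 and 50 tags in KO and 75, 104, 75 and 83 in WT, with no overlap. It fell by 0.57 ± 0.14 SE on the log2 scale (1.49-fold, limma adjusted p = 0.0035), and passed in 15 of 15 alternative fits. Runx3_r9 (chr4:135181767-135182263), 4.1 kb past the gene, held 48, 52, 36 and 33 tags in KO and 30, 55, 26 and 24 in WT, which overlapped at WT replicate 1_3. It rose by 0.59 ± 0.18 SE (1.5-fold, limma adjusted p = 0.021). Its call was lost by limma without KO replicate 1_2 (adjusted p = 0.061), KO replicate 1_3 (0.083) or WT replicate 3 (0.099), and with depth scaling (0.16). None of the 3 Cbfb regions tested passed, and their differences ran from -0.19 to 0.21.

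**Figure D4:**
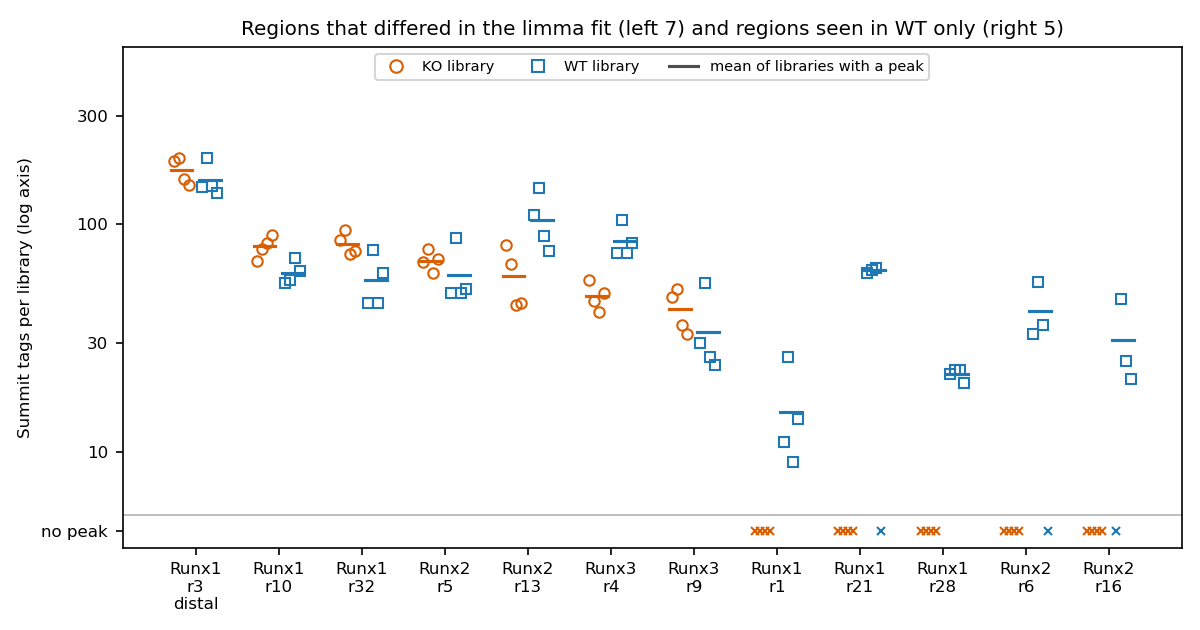
Summit tags per library (log axis) at the 7 regions that differed in the limma fit (left) and the 5 regions with peaks in 3 or 4 WT and 0 KO libraries (right); circles are KO, squares WT, bars the mean of libraries with a peak, crosses libraries with no peak. Runx2_r13 and Runx3_r4 lie lower in KO. The highest WT value is that of the deepest library at these 2 regions and at Runx1_r3, Runx1_r32, Runx2_r5 and Runx3_r9, but not at Runx1_r10.

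**Figure D5:**
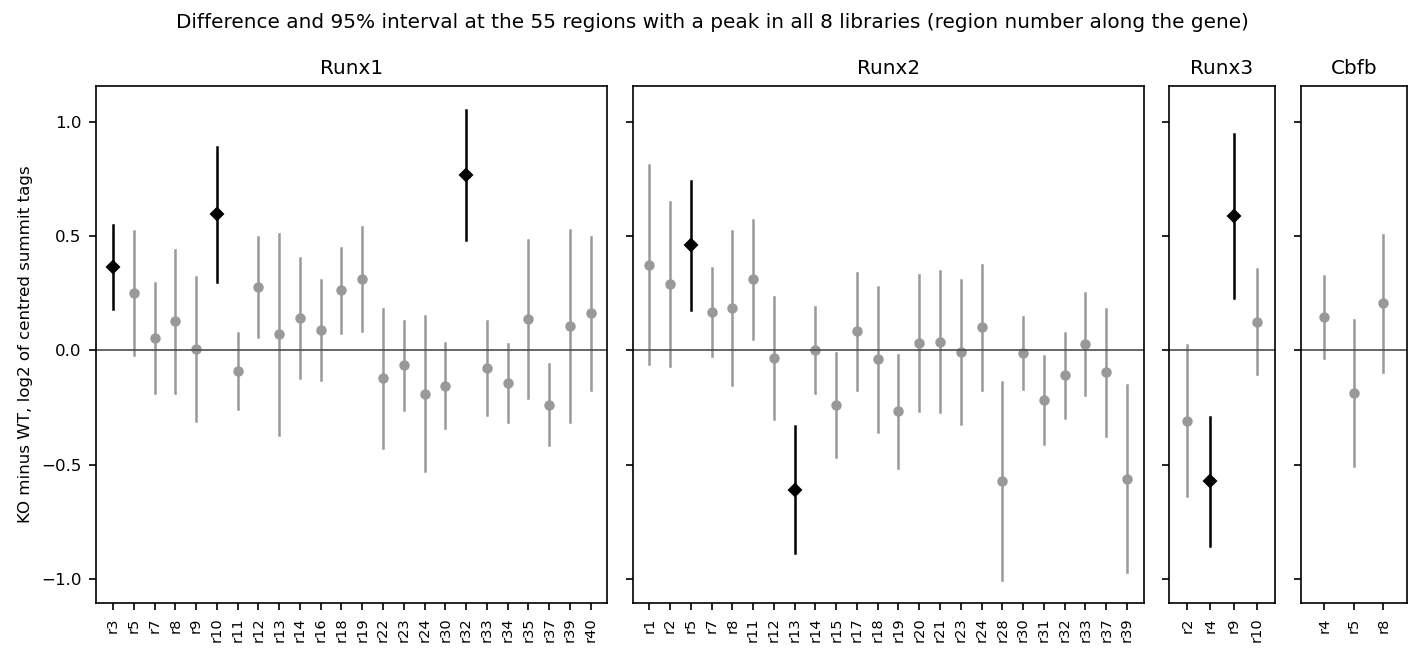
KO minus WT difference of centred log2 summit tags with its 95% interval at the 55 regions open in all 8 libraries, ordered along each gene; black diamonds passed an adjusted p of 0.05 in the limma fit of all regions. The values run from -0.61 at Runx2_r13 to 0.77 at Runx1_r32.

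Across the family's consensus regions, the RUNX letters lay within 100 bp of the summit in 29 of 90 (32.2%), against 23.1% of all 72711 consensus regions. The AP-1 letters were in 17 (18.9%, all 11.9%), the C/EBP letters (TTNCNNAA) in 44 (48.9%, all 42.7%) and the PU.1 letters in 28 (31.1%, all 38.1%). The half-site was in 7 (7.78%, all 15.1%) and a DR1 in 5 (5.56%, all 4.13%). The 5 with a DR1 in that window were Runx1_r9, Runx1_r21, Runx2_r19, Runx3_r5 and Cbfb_r3. The DR1 of the distal Runx1 stretch lies within Runx1_r3, which rose, but over 100 bp from its summit, and so is not among them. Of these, Runx1_r9 and Runx2_r19 could be tested and did not pass, with differences of 0.01 ± 0.16 SE and -0.27 ± 0.12 SE (limma adjusted p = 0.98 and 0.15). RUNX matches were present at 14 of 37 Runx1 regions, 11 of 36 Runx2 regions, 2 of 9 Runx3 regions and 2 of 8 Cbfb regions. The 79 family regions outside its promoters were also set against all consensus regions with a summit over 1 kb from a start site. The sets are not defined alike. The 79 keep regions near start sites of other genes, such as Cbfb_r8, Runx1_r34 and Runx2_r7, which the larger set leaves out. The shares were 32.9% and 26.5% for RUNX, 20.3% and 13.7% for AP-1, and 54.4% and 48.5% for C/EBP. They were 27.8% and 42.0% for PU.1, 7.59% and 16.8% for the half-site, and 6.33% and 4.73% for a DR1.

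RUNX factors act with corepressors and coactivators, and 22 genes for such partners (among them Cbfa2t2, Cbfa2t3, Tle1 to Tle4, Ep300, Ncor1 and Hdac3) held 202 consensus regions. Of 116 tested, 8 rose and 3 fell (9.48%, genome 12.8%). WT-only regions numbered 2, at Kat6a and Tle2 (0.99% of 202, genome 0.82%). Runx1t1 had no consensus region. Among 9 known myeloid RUNX targets, 85 regions were found and 66 tested, of which 11 rose and 3 fell (21.2%, genome 12.8%). Itgax, the CD11c gene whose promoter drives the Cre transgene, held 8 of the 11 rises and all 8 of its tested regions rose. Most of the list's rises thus lay at this 1 gene. Only the KO group carries the transgene, so its presence and the loss of the receptors cannot be told apart at Itgax. Csf1r held 2 rises, 1 fall and 1 WT-only region, Nfe2 1 rise, and Spi1 and Cebpa 1 fall each. That WT-only region made 1.18% of the 85 (genome 0.82%).

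The genes whose centred accessibility was most like that of each member over the 8 libraries, among 10331 protein-coding genes with at least 3 regions open in every library, included Kifc2 and Tufm for Runx1 (Pearson r = 0.988 and 0.987). For Runx2 it was Dnaic2 (r = 0.936), for Runx3 Araf (r = 0.924) and for Cbfb Pus10 (r = 0.936). With 8 points that share library depth, 261 genes had an r over 0.9 with Runx1 and 2 or 3 with each of the others. The mean centred value at Runx1 was 0.38 ± 0.01 (SD, n = 4) in KO and 0.27 ± 0.09 (SD, n = 4) in WT, and all WT libraries lay below all KO libraries except WT replicate 4, at 0.37.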

How the data were processed

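ATAC-seq peak lists of 8 libraries of sorted AMs (4 KO, 4 WT) were analysed. Groups and replicate names were read from the sample titles. As the study's methods state, reads were trimmed (Cutadapt), mapped to mm10 (Bowtie2) and freed of duplicates, and the authors kept properly paired reads of high mapping quality (samtools) and called peaks per library with MACS3 at a q-value of 0.05, on cuts shifted and extended to 200 bp. Each deposited list gives a peak's place, a score (a display value, not used), a fold enrichment, which is the authors' ratio of summit pileup to local background with 1 added to each, and the −log10 p-value and −log10 q-value. The lists hold no read counts, so edgeR, the study's own test, was not run. A deeper library passes the q threshold with less enrichment, so no peak in a list does not mean closed chromatin.

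Summit tags were the whole numbers that give back the fold and the deposited −log10 p-value under the peak caller's Poisson model (relative error at most 1e-05, 100% of peaks in every library). Genes and start sites came from GENCODE M21 for GRCm38. Start sites within 1 kb were joined into a promoter, and a promoter region had its summit within 1 kb. The number of peaks in each library was tested by exact permutation of the genotype labels (70 labelings). At regions with a peak in all 8 libraries, log2(tags + 0.5) minus the library median was fitted by limma 3.58.1 (R 4.3.3, trended prior variance, Benjamini-Hochberg adjustment over all 47499 regions), after a check on simulated tags. Fold changes are on that log2 scale. Intervals cover the spread between libraries. Sequences were read from GRCm38, and both strands were searched for motifs in the 100 bp on either side of the strongest peak's summit.

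The rule named the members, their promoters, regions seen in 3 or 4 libraries of 1 genotype and 0 of the other, regions past the limma threshold, the 2 most open other regions of each gene, and the most alike genes, of which 1 is not reported here. Runx1_r7, Runx1_r8, Runx2_r3, Runx2_r7 and Runx2_r36 and the 5 regions with a DR1 were named after their values were seen. The members, gene lists and tests were chosen with earlier results of these data known. The alternatives were other scalings, another pseudocount, a filter on low tags, a constant prior variance, other flanks and peak thresholds, 1_2 and 1_3 as 1 sample, a replicate block, and each library left out.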

Additional observations from a re-analysis of the deposited data

Results flagged for a closer look

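Of 60 sets of 4 values examined, 4 had an extreme library set apart from the other 3, and chance flags about 1 in 20. At Runx1_r3 WT replicate 1_3 had 196 tags where the other WT libraries had 137 to 147, and at Runx2_r5 the same library had 87 where they had 50 to 52. At Runx1_r18 KO replicate 2 had 230 tags where the other KO libraries had 196 to 201. At Cbfb KO replicate 3 had 7 peaks and the other KO libraries 6 each. Because those counts are equal, any differing count would be flagged, and the chance rate above does not apply to it. WT replicate 1_3 also had the highest background depth of the 8 libraries, 2.26 tags per 200 bp.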

How the results depend on the processing

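The lists hold peaks and no reads, so weak regions are limited by depth. The difference in peaks at the family was negative in every alternative run. Its exact permutation p was no longer past 0.05 with lists of equal length (-4.25 peaks), with 1_2 and 1_3 as 1 sample (-9.67), with a replicate block (-9.67 over 3 pairs, exact p = 0.25, the smallest 3 pairs allow), as a percentage of each library's peaks (-0.00721, chosen after seeing the data), or without each library in turn (-11.1 to -7.83, all at p = 0.0571, the smallest that 3 against 4 allows). The difference in covered length missed the threshold in every alternative. One-sided regions numbered 0 at a −log10 q of at least 5, 0 with lists of equal length, 1 without flanks, and 2 to 4 without each library, against 2. Changed regions numbered 3 with scaling to background depth, against 7, 6 with a constant prior variance (Runx1_r10 lost), 9 with 1_2 and 1_3 averaged (5 higher, 4 lower), and 5 to 8 without each library. With a replicate block the count was 9, and the same 7 regions passed with Runx1_r12 and Runx1_r18 added. Deviations over regions correlated weakly between samples with a shared replicate name (0.056 for 1_2, 0.116 for 1_3 and 0.037 for 3). Pairs without a shared name ran from -0.067 to 0.032. Each of the 6 samples with a shared name correlated best with its namesake, and what the names stand for is not stated. In the median-centred fits of 20 named regions, no called direction reversed.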

Other observations

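The sign of the difference at regions open in all 8 libraries varied along Runx1 and Runx2, a pattern seen in the data and not tested. In Runx1, up to and including the proximal promoter, 12 of 13 regions had a positive KO minus WT value (median 0.14 on the log2 scale), and beyond it 4 of 11 did (median -0.08). In Runx2, 6 of 6 were positive up to 1 kb past the first start site of the proximal promoter (median 0.30). Beyond that point 6 of 18 were positive (median -0.04). The 18 include Runx2_r12 (difference -0.03), which belongs to the proximal promoter but lies 2.0 kb past its first start site. With scaling to background depth the numbers were 10 of 13 and 4 of 11 in Runx1, and 6 of 6 and 2 of 18 in Runx2, with medians of 0.09 and -0.13 in Runx1 and of 0.25 and -0.09 in Runx2. Of these regions, 5 passed the limma threshold. Over all 47499 regions tested, the median difference was 0.04 with median centring and -0.01 with scaling to background depth.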
